A study of Rattus norvegicus with 12 samples.

Results

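Articular cartilage is normally a hyaline tissue. The 38 genes described here encode collagens other than the cartilage collagens II, IX and XI, adhesive and matricellular proteins, and proteins of activated fibroblasts and other cells. Many are best known from fibrous tissue or basement membranes, but some, such as collagen VI, are also part of normal cartilage. The 38 genes were chosen by name for these functions. A gene was read from the array rows that carry its symbol and no other, and where several rows did so the row with the highest mean over the 12 arrays was taken. Such a row (a probe set) was found for 37 of the 38 genes, out of 14217 genes with one, and Thbs1 was the gene without one. Probe sets were kept for testing where 3 or more of the 12 arrays, of any groups, had a log2 value above 4. It kept 35 of the 37, out of 9244 genes kept in all.

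The study measured RNA of rat knee articular cartilage on 1-colour Affymetrix arrays, with 3 arrays in each of 4 groups. The groups were cartilage 2 weeks after osteoarthritis (OA) surgery, 2 weeks after sham surgery, 8 weeks after OA surgery and 8 weeks after sham surgery, and the sham groups were the study's controls. The labels point to an established surgical rat model without spelling out the operation, and strain, sex and age are not given in the sources used here. Cartilage was homogenised whole, and no label says whether the 3 arrays of a group came from separate animals, so p-values measure the spread between these arrays, which may be technical. In such bulk RNA, fewer cells of a type and less RNA per cell cannot be told apart.

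Fibrillar collagens I, III and V build the rope-like fibres of skin, tendon and scar, whereas hyaline cartilage relies on collagens II, IX and XI. Collagen VI forms beaded filaments around each chondrocyte, in the pericellular matrix. Collagen IV and nidogen are parts of basement membranes, the sheets under epithelia and around vessels and muscle fibres. Matricellular proteins such as thrombospondins, periostin, tenascin-C and the CCN family sit in the matrix and signal to cells during growth and repair. In osteoarthritis, a rise of such genes is often read as a shift towards fibrous repair tissue.

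The arrays carried the tissue's own markers. Of 10 listed chondrocyte markers, 7 had a probe set with 1 gene symbol. All 7 were kept by the filter, and their mean log2 level was 14.75 to 15.28 in every array. Correlations between arrays of a group ran from 0.971 to 0.993. Replicate 1 of the 8-week OA group stood apart. The actin control probe sets differed by 5.38 between the 3′ and 5′ ends of the transcript there, against 7.72 to 8.66 in the other arrays, and those of Gapdh by 0.885 against 1.24 to 1.47. The mean level of 11 skeletal muscle markers was 14.70 in that array, against 11.63 and 10.24 in its group and 5.75 to 10.77 in the other groups. The calls at 8 weeks are therefore given also without it, as are some other 8-week values that it moved.

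Promoter sequence was at hand for 27 of the 38 genes in a RefSeq table of the GRCr8 rat assembly, and the windows searched were the 250 bases before the start of each gene. Their median GC content was 58.4%, against 52% over all 27457 promoters of the table. The sequences shown are of 2 gene pairs that were picked after their values had been seen. Col4a1 and Col4a2 encode the paired chains of collagen IV and shared their lowest sham array at each time. Ccn1 and Ccn2 are related matricellular genes that differed widely in how far their arrays spread. The transcription starts of Col4a1, on the plus strand, and Col4a2, on the minus strand, lay 77 bases apart, so that the 76 bases at chr16:84885521-84885596 were upstream of both. They are given on the plus strand and hold none of the 5 motifs searched.
Col4a2 to Col4a1: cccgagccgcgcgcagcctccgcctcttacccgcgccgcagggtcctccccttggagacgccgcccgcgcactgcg

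The other 2 windows are the 180 bases before the start of Ccn1 at chr2:237225690-237225869 and of Ccn2 at chr1:22624615-22624794, both on the minus strand and written in the direction of transcription. Capitals mark the TEAD letters GGAATG, or CATTCC where they lie on the other strand, and the TATA letters TATAAA.
Ccn1: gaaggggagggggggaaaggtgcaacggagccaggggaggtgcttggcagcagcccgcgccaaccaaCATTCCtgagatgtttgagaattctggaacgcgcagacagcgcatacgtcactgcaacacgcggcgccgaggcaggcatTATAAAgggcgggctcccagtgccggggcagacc
Ccn2: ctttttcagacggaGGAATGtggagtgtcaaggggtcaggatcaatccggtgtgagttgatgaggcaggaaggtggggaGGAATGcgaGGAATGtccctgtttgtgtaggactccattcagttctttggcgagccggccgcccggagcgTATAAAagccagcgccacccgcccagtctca

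The Ccn2 window held GGAATG at 3 places and the Ccn1 window at 1, and each held TATAAA once, beginning 31 bases before the start in Ccn2 and 34 bases before it in Ccn1. Searched on both strands, GGAATG, the core that TEAD factors of the Hippo pathway bind, was in 6 of the 27 windows (Acta2, Ccn1, Ccn2, Nid1, Sparc and Thbs1), or 22.2%, against 11.8% of all promoters. TATAAA was in 6 windows as well (Ccn1, Ccn2, Col1a2, Postn, S100a4 and Tnc), against 13.1% of all. The AP-1 letters TGANTCA were in 1 window, that of Col6a1, or 3.7% against 6.36%. The SMAD palindrome GTCTAGAC (0.186% of all promoters) was in none of the 27. Nor was the CArG box of serum response factor in its strict form (1.5% of all): CC, 6 letters of A or T, then GG. Sequences 1 base off, such as ccctatatgg and ccttgtttgg in the Acta2 window, were not counted. A match describes letters only.

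At 2 weeks after surgery, no gene of the group differed between OA and sham at an adjusted p under 0.05. That was also so of all probe sets tested: 0% were called higher and 0% lower by limma with Benjamini-Hochberg adjustment over 15934 probe sets. At an unadjusted p under 0.05, 1 of the 35 genes passed, against 1.69% of all probe sets. The median difference of the 35 genes was −0.14 on the log2 scale and 30 of them were below 0, against a median of −0.013 and 5060 of 9244 below 0 over all genes. In no gene did all 3 OA arrays lie above all 3 sham arrays, against 1.91% of probe sets. In 2 genes, Col1a2 and Ccn1, they all lay below, against 3.46%.

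At 8 weeks after surgery, 4 of the 35 genes differed. Fap, a membrane protease of activated fibroblasts, Col16a1, a minor collagen found at fibril surfaces, and Col6a1, a chain of pericellular collagen VI, were lower after OA surgery, and Col8a1, a short-chain collagen of vessel walls and other remodelling tissues, was higher. Among all probe sets 1.51% were called higher and 1.95% lower, so that 1 of 35 and 3 of 35 stand against 241 and 311 of 15934. Of the 9244 kept genes, with 1 probe set each, 95 were called higher and 227 lower. The median difference of the 35 genes was −0.46, with 25 below 0, against −0.033 with 5123 of 9244 below 0 over all genes. At an unadjusted p under 0.05, 15 genes passed, against 21.5% of probe sets. In 3 genes (Col8a1, Thbs2 and Vcan) every OA array lay above every sham array, against 12.3% of probe sets, and in 9 (Col1a1, Col6a1, Col6a3, Col16a1, Col4a1, Sparc, Ccn1, Cthrc1 and Fap) every OA array lay below, against 12.8%.

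**Figure D1:**
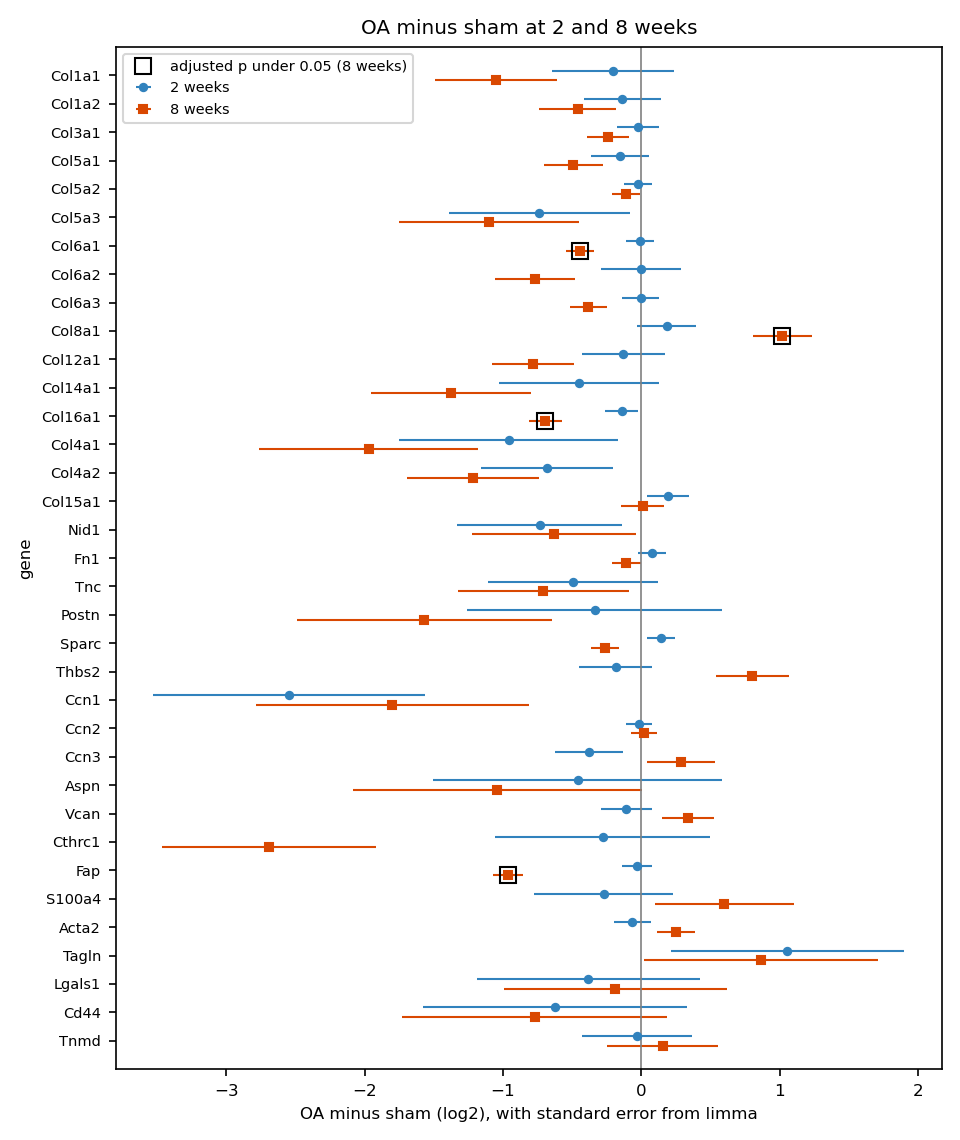
OA minus sham on the log2 scale for each of the 35 kept genes at 2 weeks (circles) and 8 weeks (squares), with limma's standard error as bars and a black square around the 4 differences with an adjusted p under 0.05. At 8 weeks 25 of the 35 points lie left of 0, and only Col8a1 is called to the right.

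OA and sham arrays of the same replicate number deviated together within each time. Their correlations were 0.333 to 0.527 at 2 weeks and 0.119 to 0.239 at 8 weeks. OA and sham arrays of unlike number ran from −0.381 to 0.0692 at 2 weeks and from −0.266 to 0.142 at 8 weeks. The 3 deviations of a group sum to 0, so the values of unlike-number pairs are tied to those of same-number pairs and are not separate evidence. At 8 weeks OA replicate 3 correlated at 0.142 with sham replicate 2 and at 0.119 with sham replicate 3. The labels give the number and do not state a pairing. With the number as a block within each time, a fit chosen after the values were seen, 5 genes were called lower and 1 higher, against 3.43% and 3.08% of all probe sets. Cthrc1 (adjusted p 0.00647), Col14a1 (0.0236) and Col4a2 (0.0487) passed in this paired fit besides Fap (0.00967), Col16a1 (0.0137) and Col8a1 (0.0411), and Col6a1 did not (0.0593). The paired fit called 0 genes at 2 weeks.

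The 4 calls without the block rest on a spread estimated over all 4 groups. Fitted with only the 6 arrays of the 8-week groups, none passed: the adjusted p was 0.0672 for Fap, 0.0806 for Col16a1, 0.157 for Col8a1 and 0.194 for Col6a1, with the differences unchanged. Without replicate 1 of the 8-week OA group, 1 gene was called higher and 2 lower, Col6a1 no longer passed at −0.34 (adjusted p 0.0986), and the median of the 35 genes was −0.22. Col6a1 passed in only 1 of the 12 fits that left out an array, that without OA replicate 3 of the 8-week group. Col8a1 lost its call without sham replicate 2 or 3 of the 8-week group, or without replicate 1 of either 2-week group (adjusted p 0.0514 to 0.131), and Col16a1 without OA replicate 2 or sham replicate 2 or 3 at 8 weeks (0.055 to 0.0759). Over 23 alternative settings the adjusted p of Fap ran from 0.000978 to 0.0672, that of Col16a1 from 0.00679 to 0.0806, that of Col8a1 from 0.0155 to 0.157 and that of Col6a1 from 0.0235 to 0.194.

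Markers of other cell types also differed between the 8-week groups. The lists named 10 osteoclast, 16 macrophage and 11 osteoblast and osteocyte markers, of which 6, 16 and 8 had a probe set with 1 symbol. Of 5 kept osteoclast markers (Calcr was left out by the filter), all 5 were called lower after OA surgery, and their mean level was 9.48 to 10.82 in the OA arrays against 12.53 to 12.87 in the sham arrays. Of 14 kept macrophage markers (Cd163 and Itgam were left out), 4 were called lower, with means of 6.65 to 6.79 against 7.68 to 10.35. Of 7 kept osteoblast and osteocyte markers (Sost was left out), 3 were called lower, with means of 10.03 to 10.74 against 11.53 to 11.96. The means of these 3 lists were lower in every OA array than in any sham array. That was also so of the endothelial and erythroid lists given below, while the remaining lists overlapped.

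Of the 7 chondrocyte markers 1 was called lower, Col9a1, with means of 14.75 to 15.13 in the OA arrays and 15.09 to 15.16 in the sham arrays. No marker was called in the remaining 5 lists. Those of endothelial, skeletal muscle, synovial fibroblast and tendon, and erythroid markers named 12, 15, 11 and 8 genes. A probe set with 1 symbol was found for 11, 14, 8 and 5 of them, and for all 10 smooth muscle and pericyte markers. The means in the 8-week OA and sham arrays were 4.67 to 5.35 and 5.38 to 6.87 for 7 endothelial markers (Cldn5, Esam, Tie1 and Vwf were left out), and 10.24 to 14.70 and 6.29 to 10.77 for 11 skeletal muscle markers (Actn2, Myh2 and Ryr1 were left out). They were 11.08 to 11.36 and 11.31 to 12.02 for 6 markers of synovial fibroblasts and tendon (Clec3b and Dpp4 were left out), and 6.42 to 7.16 and 7.47 to 8.44 for 3 erythroid markers (Ahsp and Epb42 were left out). They were 5.36 to 6.19 and 5.42 to 6.58 for 5 smooth muscle and pericyte markers (Cnn1, Des, Lmod1, Myocd and Notch3 were left out). At 2 weeks no marker of any list was called. The part of these cell types in the differences at 8 weeks was not tested.

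The fibrillar collagens were below sham in all 6 genes at both times, and none passed the test. Their median difference was −0.15 at 2 weeks and −0.48 at 8 weeks. Col1a1, the main chain of collagen I, read 14.41, 15.06 and 14.78 in the 8-week sham arrays and 12.41, 14.40 and 14.28 in the OA arrays. The OA arrays were thus all lower, 1 of them by far. The difference was −1.05 ± 0.44 (log2, SE; adjusted p 0.208), and −0.41 without OA replicate 1 (adjusted p 0.316). At 2 weeks Col1a1 read 14.72, 14.32 and 14.54 in sham and 14.49, 14.39 and 14.08 in OA, and the groups overlapped. A second, dimmer probe set of Col1a1 was called lower at 8 weeks, at −1.49 ± 0.34 (adjusted p 0.0464).

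Col5a1, a chain of the collagen V that nucleates collagen I fibrils, read 14.10, 13.91 and 13.81 in the 8-week sham arrays and 12.87, 13.60 and 13.86 in the OA arrays. The groups overlapped, again with OA replicate 1 lowest, and the difference was −0.49 ± 0.21 (adjusted p 0.217), or −0.20 without that array. At 2 weeks it read 13.92, 13.70 and 13.87 in sham and 13.64, 13.61 and 13.78 in OA. The other 4 fibrillar genes (Col1a2, Col3a1, Col5a2 and Col5a3) had differences of −0.11 to −1.10 at 8 weeks. That of Col1a2 was −0.46 ± 0.28 and −0.049 without OA replicate 1. The OA arrays of Col1a2 at 2 weeks read 15.15, 15.14 and 14.98, all just under the sham arrays at 15.25, 15.20 and 15.24, a difference of −0.14 ± 0.28 (adjusted p 1).

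Collagen VI showed nothing at 2 weeks, where the differences of its 3 genes were −0.010 to −0.0049, and was below sham in 3 of 3 genes at 8 weeks, with a median of −0.44. Col6a1 read 14.995, 14.95 and 14.96 in the 8-week sham arrays and 14.32, 14.52 and 14.73 in the OA arrays. The sham arrays lay close together and all OA arrays lay below them. Col6a1 fell by 0.44 ± 0.10 (log2, SE; 1.36-fold lower, adjusted p 0.0494, or 0.0593 in the paired fit), and at 2 weeks its arrays read 14.84, 14.70 and 14.84 in sham and 14.81, 14.72 and 14.81 in OA. Col6a3, the long chain of the same trimer, read 14.90, 15.01 and 14.94 in 8-week sham and 14.24, 14.59 and 14.86 in OA, without overlap, for −0.38 ± 0.14 (adjusted p 0.147), or −0.22 without OA replicate 1. Its 2-week values were 14.91, 14.82 and 14.78 in sham and 14.88, 14.84 and 14.78 in OA. Col6a2 differed by −0.77 ± 0.29 at 8 weeks (adjusted p 0.166), while its second probe set gave −0.02 ± 0.37. Without OA replicate 3, the OA array nearest sham, Col6a2 (−1.17, adjusted p 0.0113) and Col6a3 (−0.53, adjusted p 0.0419) passed. Each passed only in that 1 of 23 alternatives, and their adjusted p ran up to 0.507 and 0.392.

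The short-chain and fibril-associated collagens held calls in both directions. Col8a1 read 9.18, 9.28 and 9.05 in 8-week sham and 10.73, 9.89 and 9.93 in OA, so that every OA array was higher and replicate 1 highest. It rose by 1.02 ± 0.21 (2.02-fold, adjusted p 0.0341), and by 0.74 without that array (adjusted p 0.0327). At 2 weeks Col8a1 read 9.05, 8.74 and 8.90 in sham and 8.92, 9.00 and 9.32 in OA, and the groups overlapped.

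Col16a1 moved the other way. It read 12.69, 12.61 and 12.71 in 8-week sham and 12.10, 11.85 and 11.98 in OA, a gap wider than the spread within either group, and OA replicate 1 was the highest of its group. Col16a1 fell by 0.69 ± 0.12 (1.62-fold lower, adjusted p 0.0169), and the value without that replicate was −0.76 (adjusted p 0.0251). At 2 weeks it read 12.60, 12.46 and 12.80 in sham and 12.35, 12.40 and 12.68 in OA. Col12a1 and Col14a1, which bind fibril surfaces in tendon and skin, differed by −0.78 ± 0.30 (adjusted p 0.171) and −1.37 ± 0.58 (adjusted p 0.206) at 8 weeks. Col14a1 read 11.28, 12.96 and 12.24 in sham and 9.46, 11.39 and 11.50 in OA, lower in all 3 same-number pairs though the groups overlap. In the paired fit it fell by 1.37 ± 0.20 (adjusted p 0.0236).

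**Figure D2:**
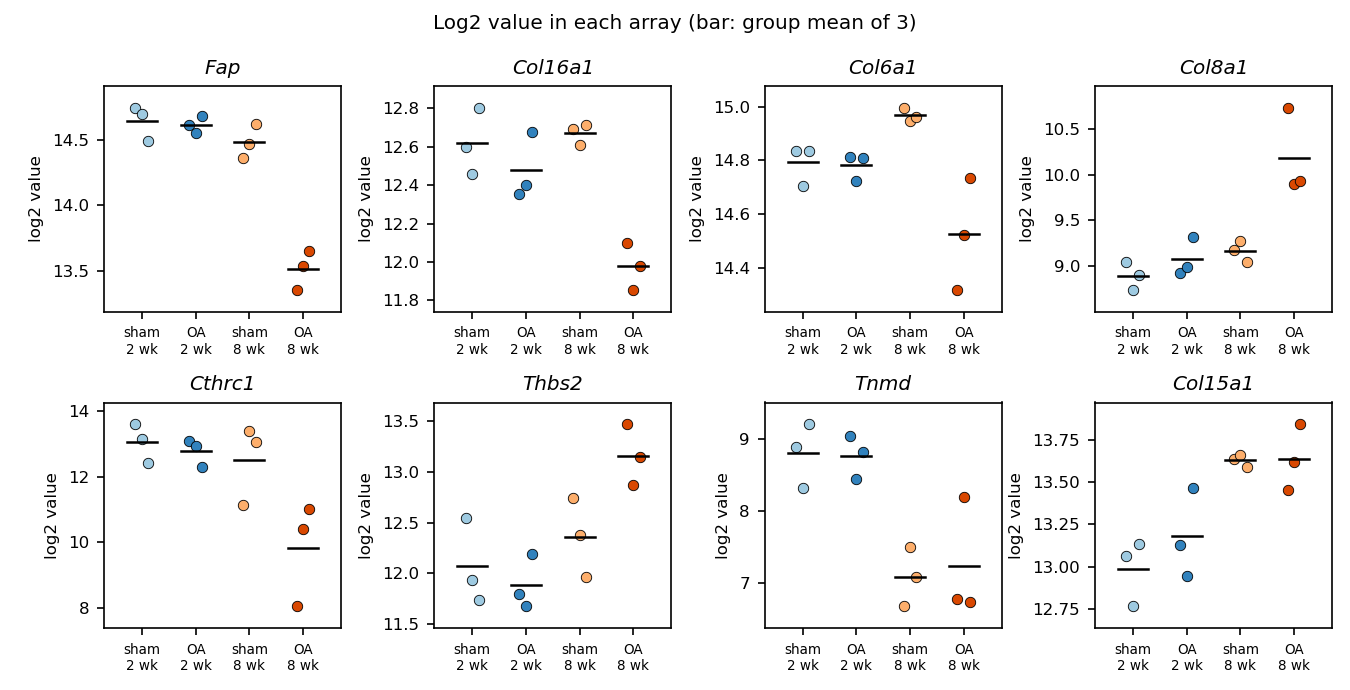
Log2 value of 8 genes in each array of the 4 groups, with a bar at the mean of the 3 arrays and an axis of its own for each gene. The 8-week OA arrays of Fap, Col16a1 and Col6a1 lie below all 8-week sham arrays and those of Col8a1 and Thbs2 above, while Tnmd separates by time in both groups and Col15a1 in sham.

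Of the 6 basement membrane and multiplexin genes, 4 were kept, and none was called between OA and sham at either time without the block. Col4a1 read 9.50, 11.86 and 11.62 in 8-week sham and 9.15, 8.78 and 9.12 in OA. The OA arrays lay close together below the sham arrays, of which replicate 1 was over 2 log2 units under the other 2. The difference was −1.97 ± 0.79 (adjusted p 0.188). At 2 weeks Col4a1 read 10.95, 10.82 and 9.35 in sham and 10.92, 9.29 and 8.03 in OA, a wide overlap.

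Col4a2 read 9.01, 10.49 and 10.67 in 8-week sham and 8.44, 8.64 and 9.43 in OA, so that sham replicate 1 was again the lowest and the groups overlap. Its difference was −1.22 ± 0.48 (adjusted p 0.18), ± 0.26 with an adjusted p of 0.0487 in the paired fit, and −1.74 with an adjusted p of 0.0406 when sham replicate 1 was left out; over all alternatives this p ran up to 0.45. At 2 weeks it read 10.08, 9.98 and 9.42 in sham and 9.82, 9.11 and 8.49 in OA. Nid1, which links collagen IV to laminin, differed by −0.73 ± 0.59 at 2 weeks and −0.63 ± 0.59 at 8 weeks. Col15a1, a proteoglycan collagen at the outer face of basement membranes, differed by 0.0085 ± 0.15 at 8 weeks.

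The filter left out the other 2 genes of this class. Col18a1, the source of endostatin, read 2.88 to 2.95 in all 12 arrays. Col4a5, a collagen IV chain of specialised basement membranes, read 5.22, 7.27 and 3.63 in the 8-week OA arrays and 2.44 to 2.59 in the other 9, and was not tested because only 2 arrays were above 4. Acta2 was the kept gene nearest that limit, with 5 arrays above 4 and a highest value of 4.47.

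Among the 11 kept adhesive and matricellular genes none was called between OA and sham at either time without the block, and 7 of the 11 were below sham at 8 weeks. Cthrc1, a secreted protein of wound fibroblasts, read 11.12, 13.37 and 13.05 in 8-week sham and 8.06, 10.40 and 11.01 in OA. All OA arrays were lower, though 11.01 and 11.12 nearly touch. The difference was −2.69 ± 0.77 with an adjusted p of 0.0901. In the paired fit Cthrc1 fell by 2.69 ± 0.21 (adjusted p 0.00647). It also passed without sham replicate 1 (−3.39, adjusted p 0.0351), and without OA replicate 1 the difference was −1.81 (adjusted p 0.171). Over all alternatives its p ran from 0.00647 to 0.265. At 2 weeks the arrays of Cthrc1 read 13.59, 13.15 and 12.41 in sham and 13.08, 12.94 and 12.28 in OA.

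Thbs2, an antiangiogenic thrombospondin, read 12.74, 12.37 and 11.96 in 8-week sham and 13.47, 12.87 and 13.14 in OA. Every OA array was higher, and the difference was 0.80 ± 0.26 (adjusted p 0.126). At 2 weeks Thbs2 read 12.55, 11.94 and 11.74 in sham and 11.80, 11.67 and 12.19 in OA. Vcan, the large proteoglycan versican, was 0.34 ± 0.19 above sham at 8 weeks (adjusted p 0.332), and Sparc, a collagen-binding glycoprotein, was at −0.26 ± 0.10 (adjusted p 0.173). Fn1, fibronectin, was within 0.11 of sham at both times, and Ccn3 was at 0.29 ± 0.25 at 8 weeks (adjusted p 0.546), or 0.13 without OA replicate 1.

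Ccn1 and Ccn2, whose promoters are printed above, behaved differently. Ccn1, an early response gene that promotes adhesion, read 12.85, 9.62 and 12.62 in 2-week sham and 9.55, 9.01 and 8.89 in OA. The OA arrays were close together and all lower, while the sham arrays fell into high and low values. Its difference at 2 weeks was −2.55 ± 0.98, with an unadjusted p of 0.0271 and an adjusted p of 1. At 8 weeks it read 9.46, 12.46 and 8.87 in sham and 8.13, 8.74 and 8.53 in OA, and the difference was −1.80 ± 0.98 (adjusted p 0.325), or −0.70 without sham replicate 2, the array at 12.46. Ccn2, connective tissue growth factor, read 15.51 to 15.75 in all 12 arrays, near the top of the array's scale, where the highest value of any probe set was 16.61.

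The class of fibroblast activation and cell genes held the lowest adjusted p. Fap read 14.36, 14.47 and 14.62 in 8-week sham and 13.36, 13.54 and 13.65 in OA. The groups were separated by a gap wider than the spread within either. Fap fell by 0.96 ± 0.11 (1.95-fold lower, adjusted p 0.00292), and the difference was −0.88 without OA replicate 1 (adjusted p 0.00702). At 2 weeks it read 14.74, 14.70 and 14.49 in sham and 14.61, 14.55 and 14.68 in OA, a difference of −0.031 ± 0.11.

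The other genes of this class did not pass. Acta2, smooth muscle actin, read 3.73, 4.06 and 4.10 in 8-week sham and 4.47, 4.09 and 4.08 in OA, and 3.71, 3.58 and 3.47 in 2-week sham and 3.53, 3.59 and 3.45 in OA. These are values close to the lower end of the scale, and 5 further probe sets that Acta2 shares with Actc1 were not used. Tnmd, tenomodulin, a tendon protein, read 6.68, 7.50 and 7.08 in 8-week sham and 6.78, 8.20 and 6.75 in OA. S100a4, Tagln, Lgals1 and Cd44 differed by 0.60 ± 0.50, 0.86 ± 0.85, −0.19 ± 0.81 and −0.77 ± 0.96 at 8 weeks, each with an adjusted p above 0.05. Cd44 was at −0.13 without OA replicate 1, and Lgals1 at −1.26 without sham replicate 1.

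Whether the effect of surgery differed between the 2 times was tested as the change of OA minus sham from 2 to 8 weeks. No gene of the group was called in either direction without the block, against 0.0628% of probe sets called higher and 0.0753% lower. Fap had the lowest adjusted p, at −0.93 ± 0.15 (adjusted p 0.0609), and it ran from 0.0283 to 0.165 over the alternatives. Without sham replicate 1 of the 8-week group it was 0.0411, and without replicate 1 of both 8-week groups 0.0443. In the paired fit Cthrc1 was called at −2.41 (adjusted p 0.0473), against 0.226% of probe sets called lower and 0.195% higher. At an unadjusted p under 0.05, 6 genes passed (Col6a1, Col8a1, Col16a1, Sparc, Thbs2 and Fap), against 11% of probe sets.

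Between 2 and 8 weeks in sham cartilage, 2 of the 35 genes changed. Col15a1 rose by 0.64 ± 0.15 (adjusted p 0.0139), from 13.06, 12.76 and 13.13 to 13.64, 13.66 and 13.59. Tnmd fell by 1.71 ± 0.40 (adjusted p 0.0115), from 8.88, 8.32 and 9.20 to the 8-week values above. In both genes the arrays of the 2 times were fully apart. Among all probe sets 12.5% (1984) were called higher and 6.24% (995) lower over this interval, a split of 1398 and 1365 with array medians equalized. Of the 9244 kept genes, with 1 probe set each, 873 were called higher and 498 lower. The Col15a1 call was lost with array medians equalized (adjusted p 0.136) and without sham replicate 2 at 2 weeks (0.0607), and a second Col15a1 probe set gave 0.27 ± 0.19 (adjusted p 0.445).

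In OA cartilage 5 genes were called higher over the same interval and 4 lower. Of all probe sets 21.7% (3461) were called higher and 12.4% (1969) lower, a split of 2238 and 2840 with array medians equalized. Of the 9244 kept genes, with 1 probe set each, 1521 were called higher and 1188 lower. Col8a1 rose by 1.10 ± 0.21 (adjusted p 0.00263), Thbs2 by 1.27 ± 0.26 (adjusted p 0.00406), Ccn3 by 0.91 ± 0.25 (adjusted p 0.0168) and Col15a1 by 0.46 ± 0.15 (adjusted p 0.043). The fifth, Acta2, is not read as a result: all 5 of its arrays above 4 are at 8 weeks, so that it passed the filter only through the time at which it is higher. Fap fell by 1.09 ± 0.11 (adjusted p 2.86e-05), Col16a1 by 0.50 ± 0.12 (adjusted p 0.0094), Cthrc1 by 2.95 ± 0.77 (adjusted p 0.0146) and Tnmd by 1.53 ± 0.40 (adjusted p 0.014). The Col15a1 call was lost in 12 of 22 alternatives, with an adjusted p of up to 0.292 when array medians were equalized, and in 8 of the 12 fits that left out an array. Ccn3 lost its call without OA replicate 2 or 3 at 2 weeks or OA replicate 1 at 8 weeks (adjusted p 0.0562 to 0.0603), and Tnmd without OA replicate 1 or 3 at 8 weeks (0.0516 and 0.0524). Ccn3, an antiproliferative CCN protein, read 10.42, 9.69 and 9.36 at 2 weeks and 11.05, 10.65 and 10.50 at 8 weeks in OA, and 10.32, 9.99 and 10.31 and then 10.53, 10.49 and 10.32 in sham. The 2-week OA values of Col15a1 were 13.13, 12.94 and 13.47, those at 8 weeks 13.45, 13.62 and 13.84, which overlap, and those of Tnmd at 2 weeks were 9.04, 8.44 and 8.81.

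The time comparisons also hold any difference in age or handling between the sets of arrays, which cannot be told apart from time. Among the 15108 probe sets left out by the filter, 27.5% had all 6 8-week arrays above or below all 6 2-week arrays, against 20.7% of those kept and 2 of the 35 genes (Acta2 higher, Tnmd lower). Acta2 is counted here although it passed the filter only through its 8-week arrays.

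**Figure D3:**
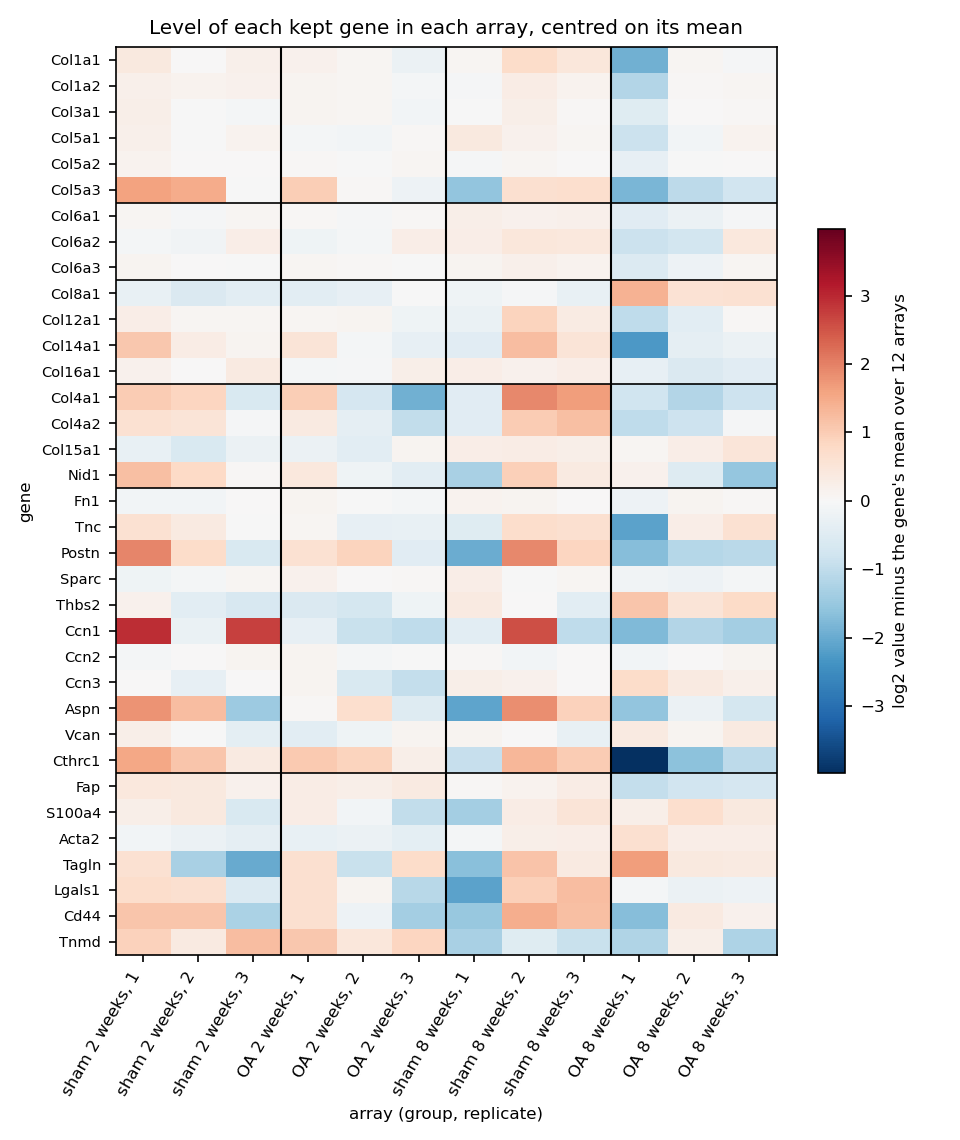
Log2 value of each of the 35 kept genes in each of the 12 arrays minus the mean of that gene, with red above and blue below the mean and lines between groups and gene classes. Ccn1 is high in 2 of 3 arrays of 2-week sham and in 1 of 8-week sham, and replicate 1 of the 8-week OA group is the lowest of its group in 23 of 35 genes.

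Many of these genes spread widely between arrays of the same group. The SD within groups, pooled over the 4 groups, was above 0.5 in 16 of the 35 genes, against 10.7% of all genes, and under 0.25 in 12. The widest were Aspn (1.42), Ccn1 (1.34), Cd44 (1.30), Postn (1.25), Tagln (1.15), Lgals1 (1.10), Col4a1 (1.07) and Cthrc1 (1.05), and the narrowest was Ccn2 (0.099). Of the 6 genes with a mean above 15, a level that 0.757% of all genes exceeded, the median SD was 0.11. Col1a2 was the widest of these 6, at 0.37.

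**Figure D4:**
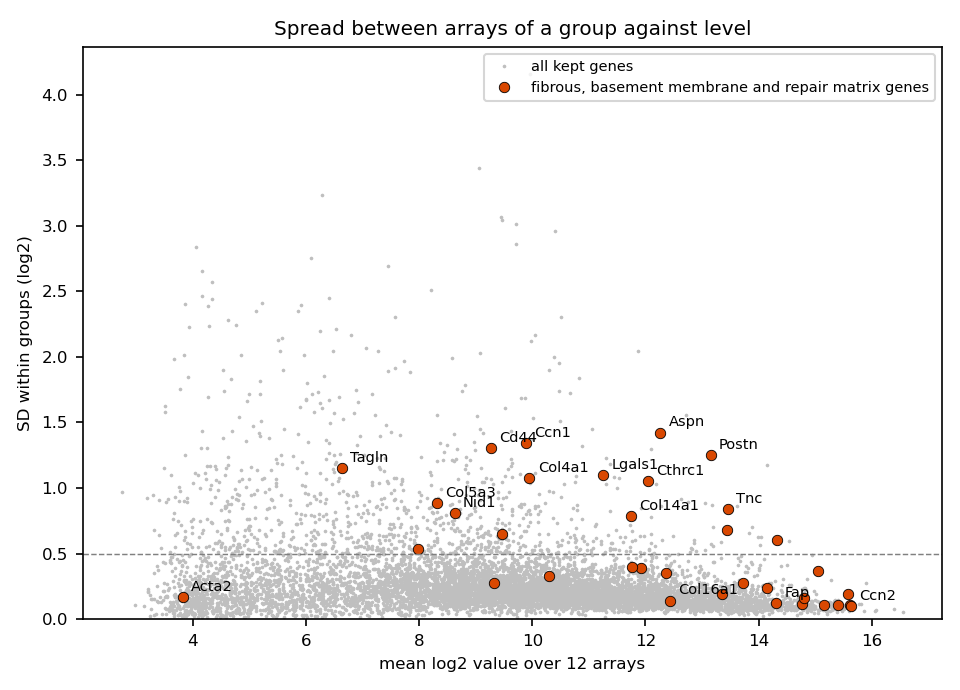
SD within groups (log2, pooled over the 4 groups) against mean log2 value over 12 arrays, for the 35 genes in orange and all 9244 kept genes in grey, with a dashed line at 0.5. Above the line lie 16 of the 35 genes, and the brightest ones, such as Ccn2, lie near 0.1.

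Several of the wide genes shared their low sham arrays. Aspn, asporin, a small proteoglycan that binds collagen, read 14.06, 13.50 and 10.82 in 2-week sham and 10.15, 14.10 and 13.18 in 8-week sham. Postn, periostin, a matricellular protein of periosteum and healing tissue, read 15.09, 13.87 and 12.55, and 11.18, 15.08 and 14.00. Cd44, the hyaluronan receptor, read 10.37, 10.37 and 8.01, and 7.77, 10.71 and 10.45. In all 3 genes replicate 3 was the low array at 2 weeks and replicate 1 at 8 weeks.

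Lgals1, galectin-1, had the same low arrays, with 11.96, 11.90 and 10.70 in 2-week sham and 9.13, 12.21 and 12.50 in 8-week sham. The macrophage markers had their lowest sham means in those 2 arrays as well, 8.59 and 7.68. So did the markers of synovial fibroblasts and tendon (11.25 and 11.31), endothelial (6.68 and 5.38) and erythroid markers (8.17 and 7.47). Not every single marker did so, and the tendon marker Scx was highest in both (9.42 and 9.54). The chondrocyte (15.28 and 15.16) and osteoblast and osteocyte lists (12.58 and 11.96) had their highest sham means there. The osteoclast list was highest at 2 weeks (13.10) but lowest at 8 weeks (12.53). In the 8-week array the skeletal muscle list was highest (10.77) and the smooth muscle and pericyte list lowest (5.42). The part of these cells in the spread was not tested. Over the 35 genes, sham replicate 1 at 8 weeks was the lowest of its group in 23, against 33.3% of all genes, and OA replicate 1 at 8 weeks in 23, against 35%. In the 8-week OA group 2 of these genes lay closer together: Lgals1 read 11.19, 11.02 and 11.07, and Postn 11.46, 12.01 and 12.06. The other 2 still spread there. Measured from their means over 12 arrays, Cd44 was at −1.68, 0.35 and 0.16 and Aspn at −1.57, −0.22 and −0.69. Over the 35 genes the median SD was 0.31 in 8-week OA and 0.33 in 8-week sham, with 15 genes above 0.5 in each. Ccn1 did not share the pattern, since its low sham array at 2 weeks was replicate 2. Aspn, Postn, Cd44, Lgals1, Ccn1, Ccn2 and Col4a5 were singled out after their values had been seen.

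**Figure D5:**
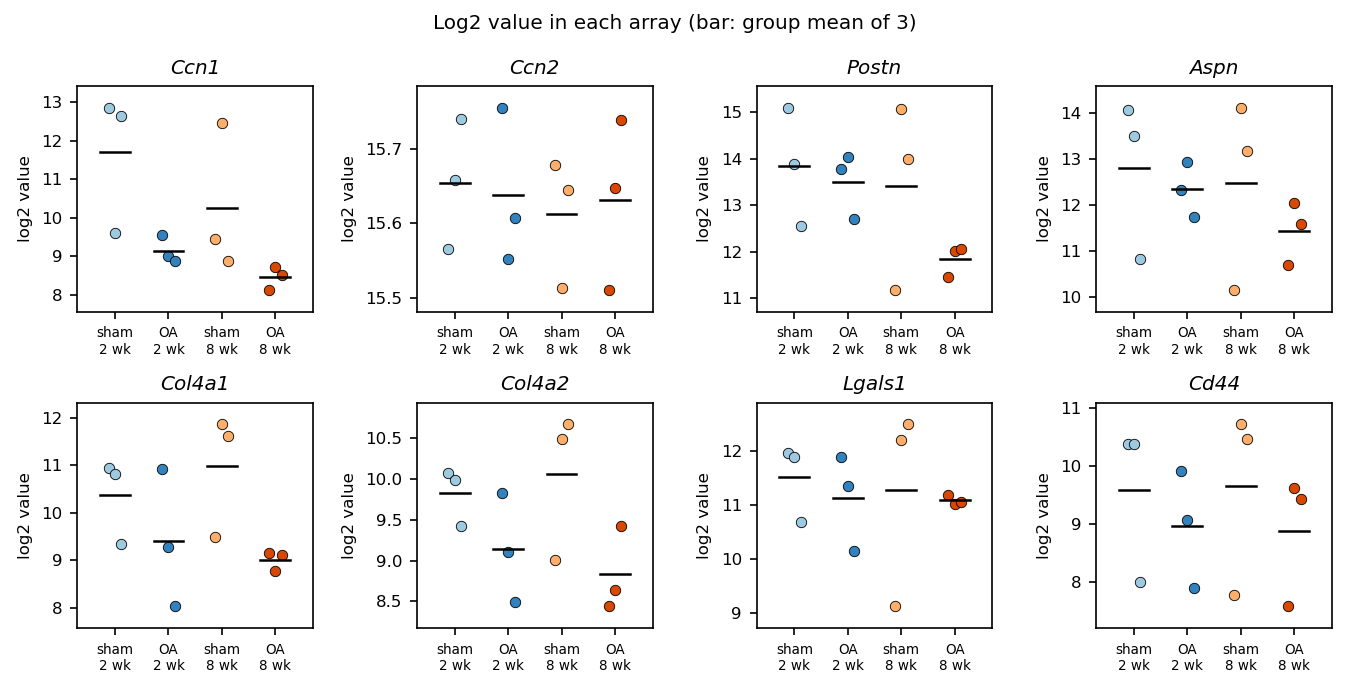
Log2 value of 8 genes in each array, with a bar at the mean of the 3 arrays and an axis of its own for each gene. In Postn, Aspn, Lgals1 and Cd44 the same sham array is low at each time, and the whole range of Ccn2 is 15.51 to 15.75.

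Other probe sets of the same genes sometimes gave another call. Over 8 minus 2 weeks in OA, dimmer sets of Vcan were called higher at 1.002 ± 0.29 (adjusted p 0.0242) and 0.94 ± 0.31 (adjusted p 0.0382), while its brightest set gave 0.45 ± 0.19 (adjusted p 0.0914). Dimmer sets of Col12a1 and Col6a3 were called lower at −1.13 ± 0.35 (adjusted p 0.0315) and −0.68 ± 0.18 (adjusted p 0.0162), and one of Col1a1 at −1.40 ± 0.34 (adjusted p 0.0105). A dim set of Cd44 was called lower at −1.72 ± 0.42 (adjusted p 0.0104), where the brightest gave −0.09 ± 0.96. Fap, Col16a1, Col6a1 and Col8a1 had 1 probe set each.

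The genes for collagen processing and crosslinking were below sham at 8 weeks in 14 of 15 tested, against 5123 of 9244 over all genes. Of the 15, 4 were called lower, against 1.95% of probe sets. Bmp1, the protease that trims procollagen ends, fell by 1.05 ± 0.18 (adjusted p 0.0161), from 9.93, 9.97 and 10.14 in sham to 8.72, 8.99 and 9.18 in OA. Serpinh1, the collagen chaperone HSP47, fell by 0.54 ± 0.10 (adjusted p 0.0261). Pcolce, the enhancer of Bmp1, fell by 0.81 ± 0.17 (adjusted p 0.0352), and Loxl3, a crosslinking lysyl oxidase, by 0.85 ± 0.18 (adjusted p 0.0381). None of the 15 was called at 2 weeks.

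Hyaline cartilage genes were called lower at 8 weeks in 3 of 11, against the same 1.95%, and these were the collagen IX chains: Col9a3 fell by 0.60 ± 0.10 (adjusted p 0.0158), Col9a2 by 1.04 ± 0.20 (adjusted p 0.0247) and Col9a1 by 0.48 ± 0.10 (adjusted p 0.0296). Of 11 collagen and fibronectin receptors, 1 was called: Itgb3, integrin beta-3, which is also on the osteoclast list, fell by 3.46 ± 0.48 (adjusted p 0.00753), from 10.87, 10.60 and 11.07 in sham to 6.04, 8.06 and 8.07 in OA.

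Of 12 serum response factor and YAP partners and targets, 1 was called: Tpm1, tropomyosin, fell by 0.56 ± 0.13 (adjusted p 0.0449), but the mean of all its probe sets gave 2.46 (adjusted p 0.214). No gene was called among 11 of the TGF-beta pathway, where Ltbp1 had the lowest p at −1.23 ± 0.37 (adjusted p 0.102), or among 9 basement membrane partners, where Nid2 was at −0.82 ± 0.30 (adjusted p 0.155). At 2 weeks no gene of the 6 lists was called. With only the 8-week arrays in the fit, none of these 9 calls passed either, with adjusted p of 0.0806 to 0.178. Without OA replicate 1 at 8 weeks, Bmp1 (−0.93, adjusted p 0.0398), Col9a3 (−0.59, 0.0362) and Itgb3 (−2.78, 0.00122) passed. Serpinh1 (0.0623), Pcolce (0.0896), Loxl3 (0.0973), Col9a1 (0.0605), Col9a2 (0.0606) and Tpm1 (0.107) did not. Without sham replicate 2 or 3, Itgb3 alone of the 9 passed. Loxl3 lost its call in 12 of 23 alternatives, Pcolce in 11 and Serpinh1 in 7, and Col9a1 also in the paired fit (0.0561).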

How the data were processed

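The deposited table held log2 values of 31099 probe sets on 12 Affymetrix arrays, summarised by the authors with GCRMA per the submitters' processing notes (version not stated). GCRMA corrects the background by probe sequence and includes a step that equalizes the arrays' distributions. The medians of the arrays still ran from 9.03 (OA replicate 2 at 2 weeks) to 9.33 (OA replicate 1 at 8 weeks). With quantile normalization added, 367 probe sets were called higher and 458 lower at 8 weeks, against 241 and 311 without it. Of the probe sets, 20832 had 1 gene symbol in the platform annotation, 436 several and 9831 none; symbols were checked against RefSeq and 0 changed. The 57 control probe sets were left out. Differences were fitted with limma 3.58.1 (R 4.3.3), with 1 mean per group and no replicate block (8 residual and 1.94 prior degrees of freedom), on 15934 probe sets above log2 4 in at least 3 arrays, and p-values were Benjamini-Hochberg adjusted. The scripts were tested on simulated data. The number of arrays limits the precision.

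The genes, marker lists and pathway lists were chosen with earlier results of these data known. Genes named with array values are those called in any of 5 comparisons and the 2 with the lowest p at either time in each of 6 classes; from each pathway list, those with the lowest p at 8 weeks. Col1a2, Ccn1, Ccn2, Aspn, Postn, Cd44, Lgals1 and Col4a5, and the other genes whose single differences are given, were added after their values were seen. Replicate numbers, taken from the labels, were used to pair OA with sham arrays within a time, though the labels do not state a pairing. The deviations of all 3 same-number pairs correlated by over 0.1 at 2 weeks (0.333 to 0.527) and at 8 weeks (0.119 to 0.239). Of the 6 different-number pairs 0 did so at 2 weeks and 1 at 8 weeks (0.142). Because the deviations of a group sum to 0, these low values are not separate evidence for a pairing. Across times the 12 same-number pairs ran from −0.497 to 0.241 and the 24 others from −0.505 to 0.64, so the numbers were not used to pair arrays across times. The paired fit has 4 residual degrees of freedom and gives no time comparison, since a block holds 1 time. Alternatives covered filters, normalization, array weights, the variance model, the arrays fitted, probe set choice, the replicate block and each array left out; the replicate block within each time and leaving out replicate 1 of both 8-week groups were added after the data were seen.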

Additional observations from a re-analysis of the deposited data

How the results depend on the processing

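Of 96 differences of single genes, recomputed under up to 23 alternatives (2158 values), 1966 kept their direction and their side of the threshold, 122 lost and 23 gained a call, and 47 changed sign. Of the sign changes 29 came from leaving out an array and 18 from other settings, and 1 involved a call: Tpm1 at 8 weeks was 2.46 (adjusted p 0.214) with the mean of all probe sets. No gene was called at 2 weeks under any alternative. The cause of a change was not tested unless the setting names it. The 3 arrays a group limit what can be seen.

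For OA minus sham at 8 weeks, 0 genes were called higher with no filter, with array medians equalized, and with only the arrays compared, and 0 lower with only the arrays compared. Leaving out an array gave 0 to 1 higher and 1 to 5 lower: 1 lower without OA replicate 2 or sham replicate 2 or 3 of the 8-week groups, and 5 without OA replicate 3. The median of the 35 genes ran from −0.57 to −0.22. The change between times gave 1 gene lower with array weights, with a variance trend and robust fit, and without replicate 1 of both 8-week groups, and 0 to 1 when an array was left out. For time in sham, 0 genes were called higher with medians equalized or the mean of all probe sets, 2 with array weights or without replicate 1 of both 8-week groups, and 0 to 2 when an array was left out. Acta2 gained a call for time in sham in 4 of 21 alternatives, array weights among them (adjusted p 0.0129). For time in OA, 3 were called higher with a filter at log2 6 or only the arrays compared, 3 to 5 when an array was left out, and 7 lower with medians equalized. The counts of genes higher in OA include Acta2, except with the filter at log2 6. Its calls over time are not read as results.

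Medians equalized moved the median of all genes from 0.076 to −0.096 for time in sham and from 0.041 to −0.14 in OA.

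Differences that changed sign were, with medians equalized, Col15a1 at 8 weeks (−0.0046) and Col16a1 (−0.12), Col5a1 (−0.065) and Col6a3 (−0.065) for time in sham; with quantile normalization, Col16a1 for time in sham (−0.0048); with array weights, Tnmd at 2 weeks (0.080), its change between times (−0.078) and Thbs2 for time in sham (−0.038). With the mean of all probe sets they were Col15a1 (−0.016) and Col6a3 (0.11) at 2 weeks, the change of Col15a1 (0.017), and Col1a1 (−0.32) and Col6a3 (−0.16) for time in sham. Without replicate 1 of both 8-week groups they were the change of Col5a1 (0.031), Cthrc1 for time in sham (0.16), and Col1a1 (0.020) and Col5a1 (0.058) for time in OA.

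When an array was left out, the range crossed 0 at 2 weeks for Col6a1 (−0.054 to 0.019), Col6a3 (−0.036 to 0.031), Fap (−0.11 to 0.018), Thbs2 (−0.35 to 0.050) and Tnmd (−0.27 to 0.17), and at 8 weeks for Ccn2 (−0.033 to 0.080), Col15a1 (−0.094 to 0.10), Lgals1 (−1.26 to 0.42) and Tnmd (−0.33 to 0.40). It did so for the change of Tnmd (−0.29 to 0.43), for time in sham for Col16a1 (−0.027 to 0.14), Col4a2 (−0.077 to 0.75) and Cthrc1 (−0.96 to 0.16), and for time in OA for Col1a1 (−0.97 to 0.020), Col4a1 (−1.09 to 0.36), Col4a2 (−0.63 to 0.036) and Col5a1 (−0.44 to 0.058).

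With the replicate number as a block within each time, 5 genes were called lower at 8 weeks and 1 for the change between times. The genes are named in the results. The pairing was inferred from the deviations of these same arrays, not from the labels. With 1 block per number over both times, 2 genes were called lower at 8 weeks, since Col6a1 had an adjusted p of 0.0537, and the other counts stayed as they were. Neither block changed another call among the members.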
